A study of Rattus norvegicus with 24 samples.

Results

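The 9 genes described here carry noradrenaline and angiotensin signals between cells: the adrenoceptor genes Adra1a, Adra1b, Adra2a, Adra2c and Adrb1, the angiotensin receptor genes Agtr1a and Agtr2, angiotensinogen (Agt) and angiotensin-converting enzyme (Ace). They were taken by gene name from the 35032 genes of the count table, and each name matched a single row. Messenger RNA had been sequenced from 2 brain nuclei of young male Sprague-Dawley rats, the hypothalamic paraventricular nucleus (PVN), where the neurons that start the adrenal stress response lie, and the central amygdala nucleus (CEA). Unoperated rats were the normal controls (NC). Rats of the other groups lost part of the left liver lobe under isoflurane (HT), either alone or with needles at the ST 36 and SP 6 points carrying current (EA) or carrying none (SEA, sham), before and after the operation. All rats, NC included, were habituated to a restraint device and held in it for the same time, and tissue was taken a day after the last stimulation. Each of the 8 groups of region and treatment had 3 libraries. By the study's methods the brain samples came from different rats of the same batch, and p-values measure the spread between these libraries. The same methods count fewer rats than there are libraries, so whether the regions shared rats is uncertain.

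Noradrenaline reaches both nuclei from the brainstem. The α1 receptors couple to Gq and generally excite neurons, the α2 receptors couple to Gi and restrain transmitter release, and the β1 receptor couples to Gs and raises cyclic AMP. In the angiotensin pathway, angiotensinogen is cut to angiotensin I, Ace converts that to angiotensin II, and the type 1 receptor carries most of the known effects on blood pressure, drinking and vasopressin release, while the type 2 receptor often opposes them. In the brain angiotensinogen is made mainly by astrocytes.

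Sequence upstream of the start was available from RefSeq (rat build GRCr8) for 7 of the 9 genes, and Adra1a and Agt were not matched. The 250 bases before the start are printed for Adra1b and Agtr2, whose levels rose and fell together across the CEA libraries, and for Adra2c and Ace, a pair related there by Pearson's coefficient but not past the threshold by rank. Adra1b lies at chr10:28814348-28814597, minus strand, Agtr2 at chrX:116914070-116914319, plus strand, Adra2c at chr14:79697477-79697726, minus strand, and Ace at chr10:91409879-91410128, plus strand. Capitals mark the GC box letters GGGCGG and the TATA letters TATAAA on either strand, and overlapping matches run together.
Adra1b: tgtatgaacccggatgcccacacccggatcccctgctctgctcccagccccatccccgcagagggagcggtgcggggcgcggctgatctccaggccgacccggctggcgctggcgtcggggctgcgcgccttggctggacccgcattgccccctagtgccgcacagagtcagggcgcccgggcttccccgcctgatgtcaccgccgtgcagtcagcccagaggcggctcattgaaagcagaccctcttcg
Agtr2: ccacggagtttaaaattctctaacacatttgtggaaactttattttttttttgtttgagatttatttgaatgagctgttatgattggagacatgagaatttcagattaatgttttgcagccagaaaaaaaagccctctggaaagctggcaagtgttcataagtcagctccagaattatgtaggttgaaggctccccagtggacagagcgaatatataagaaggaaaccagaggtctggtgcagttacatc
Adra2c: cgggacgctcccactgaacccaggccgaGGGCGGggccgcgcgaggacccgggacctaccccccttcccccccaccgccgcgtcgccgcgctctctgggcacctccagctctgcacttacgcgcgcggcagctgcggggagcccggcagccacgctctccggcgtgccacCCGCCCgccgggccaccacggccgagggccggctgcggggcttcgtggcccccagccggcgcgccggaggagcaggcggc
Ace: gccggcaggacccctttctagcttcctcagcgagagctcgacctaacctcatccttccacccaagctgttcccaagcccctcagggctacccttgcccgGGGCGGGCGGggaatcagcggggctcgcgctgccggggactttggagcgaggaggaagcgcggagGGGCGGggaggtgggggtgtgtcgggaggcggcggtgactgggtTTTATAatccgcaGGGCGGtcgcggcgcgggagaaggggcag
The windows of Adra1b and Agtr2 were unlike in composition. Adra1b had 70.8% G and C with 23 CpG pairs, and Agtr2 had 38.0% with 2, against a median of 51.2% and 5 over the 33469 promoters of the table. Neither held either motif. Adra2c had 80.4% G and C, more than 99.0% of all promoters, with 36 CpG pairs and 2 GC boxes. Ace had 69.2% G and C with 4 GC boxes and a single TATA motif. Of all promoters, 30.5% held GGGCGG and 12.9% held TATAAA. These matches are letters in a window and were not tested as binding sites.

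Total counts per library ran from 13152772 to 18607032, so that a single count was worth 0.0537 to 0.0760 CPM, which is a count scaled to a common library size. CPM values below were scaled by TMM factors, and libraries are named by region, treatment and replicate number, such as CEA HT 1. The PVN libraries carried PVN markers: the summed level of Avp, Oxt, Crh, Trh, Sim1 and Otp was 417 to 1333 CPM in the PVN and 34.8 to 181 CPM in the CEA. The CEA label was less clear cut. Of 6 central amygdala markers, 4 were in the table. Penk was 343 to 1162 CPM in the CEA and 153 to 261 CPM in the PVN, but Prkcd overlapped between the regions (20.1 to 552 CPM against 14.6 to 158 CPM) and so did Sst and Nts. All 7 striatum markers were higher in the CEA, summing to 1836 to 5621 CPM there and 135 to 252 CPM in the PVN, and several of these genes are also expressed in the central amygdala. Thalamus markers (6 of 6 in the table) ran from 49.5 to 672 CPM among CEA libraries and from 335 to 666 CPM among PVN libraries. Slc17a6 was the highest of the 6 in the PVN, at 257 to 401 CPM, and was 6.40 to 288 CPM in the CEA. The PVN sum therefore rests largely on that gene. The CEA libraries NC 2, EA 1 and SEA 2 had choroid plexus markers at 1086, 391 and 1833 CPM, against at most 28.2 CPM in the other CEA libraries and 20.5 CPM in the PVN. Of its 8 markers, Otx2 was at 0 in all CEA libraries.

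The regions differed in most of these genes. Agtr1a passed the filter on low counts only through its PVN libraries, so it is described on its own and is not counted here. With the 4 treatments as a term, 7 of the other 8 genes differed between CEA and PVN (edgeR quasi-likelihood test, adjusted p under 0.05 over all genes), 4 with more RNA in the CEA and 3 with more in the PVN. The background was large: 56.9% of all genes tested passed the same rule, 27.2% toward the CEA and 29.7% toward the PVN. Within a treatment, 6 of the 8 genes passed among NC rats (background 26.4%), 4 among HT rats (21.3%), 4 among EA rats (27.8%) and 5 among SEA rats (30.5%). Adra2a, Adra2c and Adrb1 passed in each of the 4, and the ranges of their 12 CEA and 12 PVN libraries did not overlap, which held for 14.3% of 17768 genes. In bulk tissue, fewer cells of a type and less RNA per cell cannot be told apart.

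**Figure D1:**
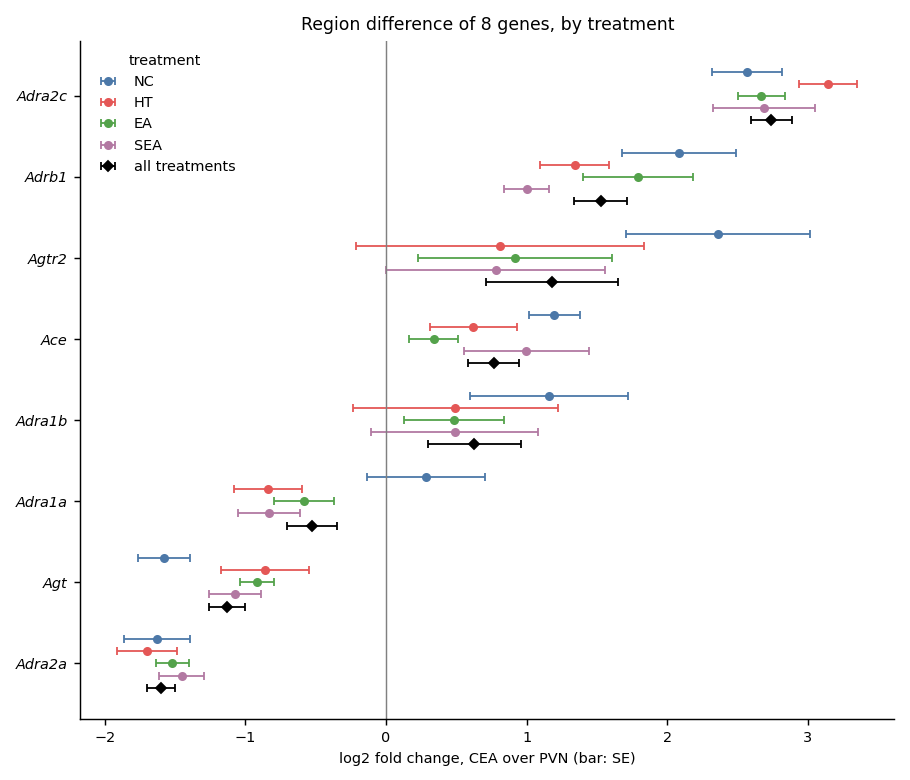
Log2 fold change of the 8 genes other than Agtr1a between the regions (x axis, CEA over PVN, bars the SE), for each treatment and over all 4 (black diamonds). Adra2c and Adrb1 lie to the right of 0 and Adra2a and Agt to the left in every treatment, while Adra1a lies on either side (0.28 in NC, -0.84 in HT).

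The α2 receptors split between the regions. Adra2a, the main autoreceptor of noradrenaline neurons, was the PVN form. The PVN values were 36.4, 26.6 and 33.0 CPM in NC, 30.4, 27.1 and 28.4 CPM in HT, 30.9, 32.2 and 28.4 CPM in EA, and 29.5, 29.6 and 32.1 CPM in SEA. CEA values were 13.6, 7.46 and 10.1 CPM in NC, 6.01, 9.41 and 10.2 CPM in HT, 9.58, 10.2 and 11.5 CPM in EA, and 13.7, 10.4 and 8.67 CPM in SEA. Every CEA library was below every PVN library. The mean was 30.4 ± 2.78 CPM in the PVN and 10.1 ± 2.20 CPM in the CEA (SD, n = 12 each), a log2 fold change of -1.60 (SE 0.10, edgeR adjusted p = 2.3e-12), and the PVN spread was the smallest of the 9 genes in that region, with a coefficient of variation of 9.14%.

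Adra2c, an α2 receptor known from the striatum, went the other way. Its PVN libraries read 12.02, 8.61 and 14.9 CPM in NC, 7.97, 10.5 and 10.1 CPM in HT, 9.97, 11.7 and 9.53 CPM in EA, and 10.01, 9.39 and 12.7 CPM in SEA. Those of the CEA read 89.0, 55.8 and 66.1 CPM in NC, 103.0, 70.6 and 70.3 CPM in HT, 61.1, 53.8 and 79.9 CPM in EA, and 65.8, 101.5 and 36.2 CPM in SEA. The lowest CEA library was above the highest PVN library, and the log2 fold change over all treatments was 2.74 (SE 0.15, edgeR adjusted p = 3.3e-13), a 6.69-fold difference. Per kilobase of gene length, the ratio of Adra2c to Adra2a within a library had a median of 0.555 in the PVN (0.430 to 0.740) and 11.1 in the CEA (6.85 to 28.2), so the leading α2 receptor changed from Adra2a to Adra2c in every library. Within the CEA, Adra2c followed the striatum markers over the 12 libraries (Pearson r = 0.932, permutation p = 1e-05, the smallest the permutations can give, adjusted p = 0.00108 over 216 relations and Spearman rho = 0.909, permutation p = 0.00013, adjusted p = 0.0103). Without the 2 libraries farthest from the median r was 0.890, and with treatment means removed it was 0.969. The part of these markers in the region difference was not tested.

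**Figure D2:**
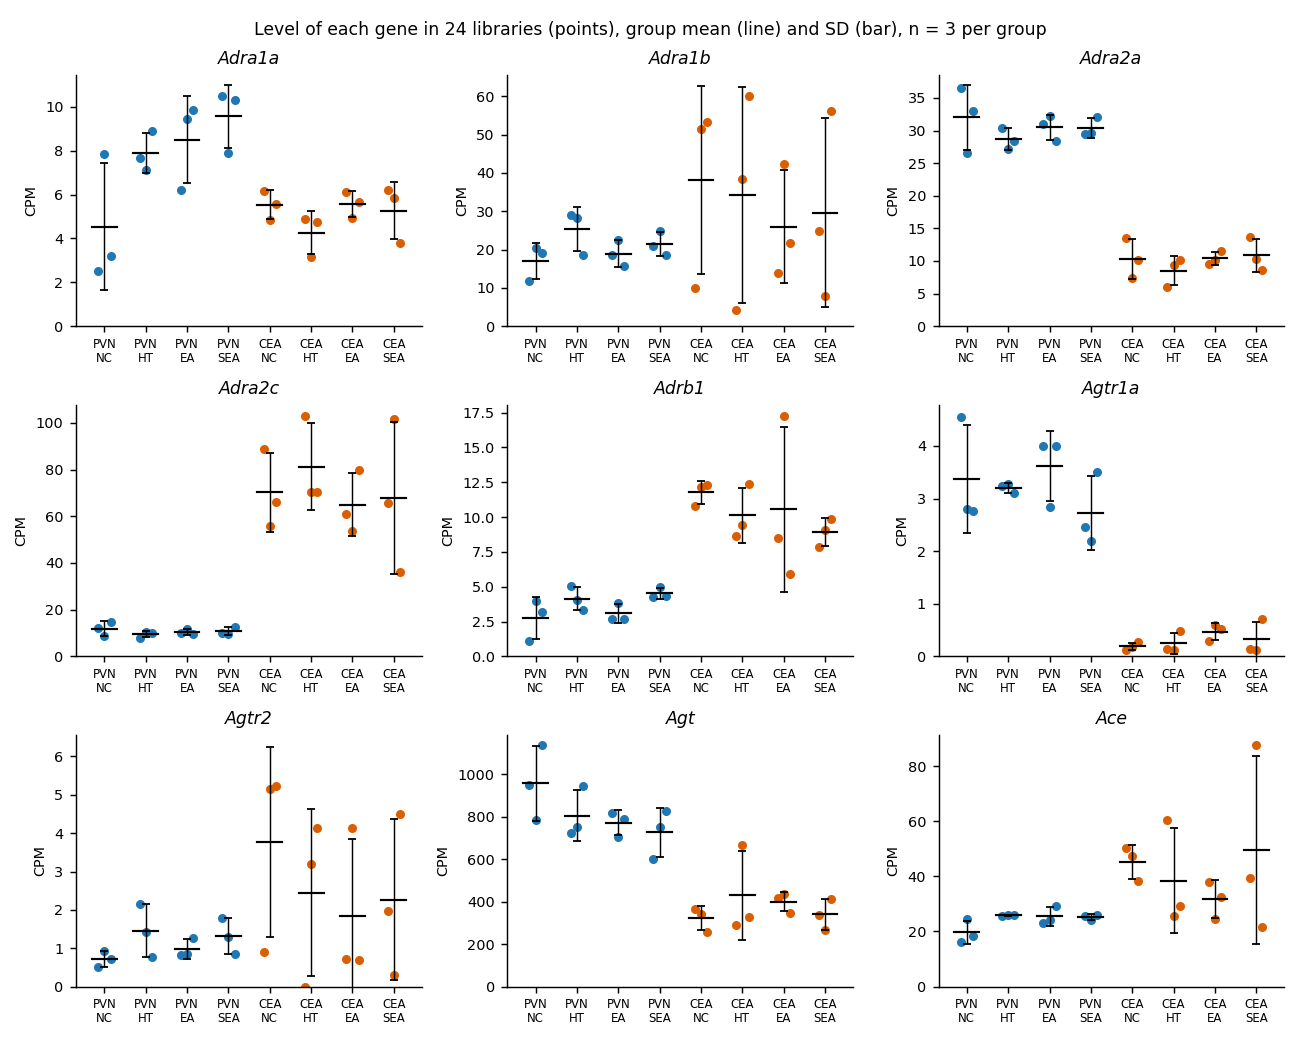
Level of each gene in the 24 libraries (y axis, CPM, 1 panel per gene; points are libraries, PVN blue and CEA orange, lines the group mean and bars the SD, n = 3). Adra2a, Adra2c, Adrb1 and Agtr1a separate the regions in all groups, whereas the CEA points of Adra1b and Agtr2 spread from near 0 to above every PVN library.

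The α1 receptors were less clearly divided. Adra1b was 18.6 to 28.9 CPM in PVN HT and 11.7 to 24.8 CPM in the other PVN groups. In the CEA its libraries were at 9.84, 51.4 and 53.4 CPM in NC, 4.25, 38.6 and 60.2 CPM in HT, 13.8, 42.3 and 21.8 CPM in EA, and 24.9, 7.78 and 56.3 CPM in SEA. Each CEA group thus held both a low and a high library: 6 of the 12 CEA libraries were above every PVN library and 3 were below every one. The 14.2-fold range in the CEA compares with 2.47-fold in the PVN. The difference between regions missed the threshold (log2 fold change 0.63, SE 0.33, edgeR adjusted p = 0.11), and it passed when CEA HT 1 (0.75, adjusted p = 0.025) or CEA SEA 2 (0.74, adjusted p = 0.0497) was left out. Single treatments gave 1.16 in NC (SE 0.56, adjusted p = 0.17), 0.49 in HT (SE 0.73, adjusted p = 0.67), 0.48 in EA (SE 0.36, adjusted p = 0.36) and 0.49 in SEA (SE 0.59, adjusted p = 0.58), all by edgeR and none past the threshold. It passed in NC without CEA NC 1 (1.62, edgeR adjusted p = 0.0053) and in HT without CEA HT 1 (1.02, adjusted p = 0.036).

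Adra1a, the other α1 receptor of the 9 genes, was 2.53, 7.85 and 3.21 CPM in PVN NC, against 7.14 to 8.89 CPM in PVN HT, 6.23 to 9.85 CPM in PVN EA and 7.90 to 10.5 CPM in PVN SEA. Its CEA libraries were at 3.14 to 6.20 CPM. PVN NC 2 sat with the operated PVN rats and the other NC libraries sat below the CEA median of 5.26 CPM. Over all treatments Adra1a was lower in the CEA (log2 fold change -0.52, SE 0.18, edgeR adjusted p = 0.014), with overlapping ranges. By treatment the value was 0.28 in NC (SE 0.42, adjusted p = 0.65), -0.84 in HT (SE 0.24, adjusted p = 0.046), -0.58 in EA (SE 0.21, adjusted p = 0.078) and -0.83 in SEA (SE 0.22, adjusted p = 0.028). Single libraries decided these calls. Without PVN NC 2 the NC value was 0.94 (edgeR adjusted p = 0.026), higher in the CEA. The HT call was lost without CEA HT 3, PVN HT 1, PVN HT 2 or PVN HT 3 (adjusted p 0.079 to 0.15), the SEA call without PVN SEA 1 or PVN SEA 3 (0.10 and 0.094), and EA passed without PVN EA 1 (-0.76, adjusted p = 0.036).

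Adrb1, the β1 receptor, was higher in the CEA in all 12 libraries. PVN values were 1.08, 3.95 and 3.21 CPM in NC, 5.03, 4.05 and 3.34 CPM in HT, 2.67, 3.85 and 2.72 CPM in EA, and 4.25, 4.98 and 4.36 CPM in SEA. CEA values were 10.8, 12.2 and 12.3 CPM in NC, 8.62, 9.41 and 12.4 CPM in HT, 8.50, 17.3 and 5.90 CPM in EA, and 7.85, 9.10 and 9.86 CPM in SEA. The CEA EA libraries spread most, from the lowest CEA value to the highest. Over all treatments the regions differed by a log2 fold change of 1.53 (SE 0.19, edgeR adjusted p = 3.2e-07), which passed in each treatment and was lowest in SEA and highest, at 2.09, in NC. In EA it was 1.79 (edgeR adjusted p = 0.011), and that call was narrowly lost without PVN EA 1 (adjusted p = 0.053) or PVN EA 3 (adjusted p = 0.051).

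Agtr1a, the type 1 angiotensin receptor gene, was low in the PVN and near the limit of detection in the CEA. In the PVN it was 4.56, 2.80 and 2.77 CPM in NC, 3.23, 3.28 and 3.10 CPM in HT, 4.002, 2.85 and 3.99 CPM in EA, and 2.46, 2.20 and 3.51 CPM in SEA, from 34 to 75 counts a library. CEA libraries held 2, 3 and 4 counts in NC, 2, 2 and 8 in HT, 4, 9 and 9 in EA, and 2, 2 and 9 in SEA. No CEA library was above 0.710 CPM, and 6 of the 12 were at 3 counts or fewer, the level that a count of 0 allows. Summed over libraries the counts were 655 and 56. Scaled to total counts, the PVN level was 11.8 times the CEA level (95% interval 8.99 to 15.8, counting error only). No fitted fold change or test is given for it between the regions, since the filter let it in through the region where it is high. The paralog Agtr1b had 0 or 1 count in each library, and reads that both genes share are uncertain.

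Agtr2, the type 2 receptor gene, was low in the PVN, from 0.506 to 2.16 CPM, or 8 to 36 counts. In the CEA it was 0.900, 5.15 and 5.24 CPM in NC, 0, 3.20 and 4.15 CPM in HT, 0.720, 4.15 and 0.681 CPM in EA, and 1.98, 0.314 and 4.49 CPM in SEA. CEA HT 1 had no count, which allows up to 0.196 CPM, while CEA NC 2 had 87 counts. As for Adra1b, 6 CEA libraries were above every PVN library, and 2 were below. The log2 fold change of 1.18 (SE 0.47, edgeR adjusted p = 0.036) depended on single libraries. It ranged from 0.96 to 1.33 and missed the threshold when any of CEA NC 2, CEA NC 3, CEA EA 2, CEA HT 3, CEA SEA 3, PVN NC 1, PVN NC 2, PVN NC 3, PVN HT 3 or PVN SEA 3 was left out (adjusted p 0.053 to 0.096), and with the replicate number as a block (0.88, adjusted p = 0.19). Of the single treatments it passed in NC (2.36, SE 0.66, edgeR adjusted p = 0.035), and that call was lost without any of 5 of the 6 NC libraries, CEA NC 1 being the exception (adjusted p 0.054 to 0.11).

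Agt, the precursor of all angiotensins, was by far the most abundant of the 9 genes. Its PVN level was 948, 784 and 1138 CPM in NC, 721, 749 and 943 CPM in HT, 817, 704 and 790 CPM in EA, and 599, 749 and 828 CPM in SEA. CEA levels were 364, 342 and 258 CPM in NC, 290, 668 and 328 CPM in HT, 418, 435 and 348 CPM in EA, and 336, 268 and 414 CPM in SEA. Of the 12 CEA libraries, 11 were below every PVN library, and CEA HT 2 was the exception. Agt was lower in the CEA over all treatments (log2 fold change -1.13, SE 0.13, edgeR adjusted p = 7.1e-08) and in NC, EA and SEA. In HT it was -0.86 (SE 0.31, adjusted p = 0.091), and without CEA HT 2 it was -1.32 (edgeR adjusted p = 0.0018). Astrocyte markers (7 of 7 in the table) overlapped between the regions, at 2390 to 3131 CPM in the PVN and 2219 to 3526 CPM in the CEA. Over the CEA libraries Agt fell as the mural cell markers rose (7 of 7, r = -0.824, permutation p = 0.0018, adjusted p = 0.0278 and rho = -0.783, permutation p = 0.0042, adjusted p = 0.0454, and r = -0.708 without the 2 farthest libraries, -0.883 with treatment means removed). The same held over the PVN libraries (r = -0.852, permutation p = 0.00017, adjusted p = 0.00459 and rho = -0.860, permutation p = 0.00063, adjusted p = 0.0227, and r = -0.899 without the 2 farthest libraries, -0.755 with treatment means removed).

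Ace, which forms angiotensin II and also breaks down other peptides, was higher and more variable in the CEA. The PVN libraries were at 16.3, 24.4 and 18.3 CPM in NC, 25.6, 25.8 and 26.1 CPM in HT, 23.0, 23.99 and 29.3 CPM in EA, and 25.6, 24.1 and 25.9 CPM in SEA. CEA libraries were at 50.2, 47.2 and 38.2 CPM in NC, 60.3, 25.6 and 29.3 CPM in HT, 38.0, 24.3 and 32.5 CPM in EA, and 39.4, 87.7 and 21.5 CPM in SEA. Of the CEA libraries, 9 were above every PVN library. Over all treatments the regions differed by 0.76 on the log2 scale (SE 0.18, edgeR adjusted p = 0.00091). By treatment the difference passed in NC (1.198, SE 0.18, edgeR adjusted p = 0.0042) and missed the threshold in HT (0.62, SE 0.31, adjusted p = 0.19), EA (0.34, SE 0.18, adjusted p = 0.19) and SEA (0.998, SE 0.44, adjusted p = 0.13). It passed in EA without CEA EA 2 (0.50, adjusted p = 0.019) and in SEA without CEA SEA 3 (1.36, adjusted p = 0.010). In the CEA, Ace followed the striatum markers (r = 0.825, permutation p = 0.00096, adjusted p = 0.0220 and rho = 0.706, permutation p = 0.0129, adjusted p = 0.0932 and r = 0.705 without the 2 farthest libraries, 0.896 with treatment means removed). CEA SEA 2, the highest, was also the library with the most choroid plexus marker RNA. Without CEA NC 2, EA 1 and SEA 2 the difference was 0.56 (edgeR adjusted p = 0.0061). Endothelial markers (6 of 7 in the table), of a cell type known to carry Ace, summed to 197 to 370 CPM in the CEA and 152 to 217 CPM in the PVN, and Cldn5 was listed at 0 in all libraries. The part of these cells in the difference was not tested.

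Ordered by CPM per kilobase, a scale that allows levels of different genes to be compared, the PVN order was Agt (421 ± 72.6), Adra2a (10.9 ± 0.992), Adra1b (8.29 ± 1.98), Ace (6.39 ± 0.937), Adra2c (6.22 ± 1.12), Adra1a (3.74 ± 1.26), Adrb1 (2.59 ± 0.794), Agtr1a (1.48 ± 0.316) and Agtr2 (0.379 ± 0.165, SD, n = 12 each). The CEA order was Agt (193 ± 56.4), Adra2c (41.7 ± 11.5), Adra1b (12.9 ± 8.29), Ace (10.9 ± 4.94), Adrb1 (7.39 ± 2.09), Adra2a (3.59 ± 0.785), Adra1a (2.53 ± 0.474), Agtr2 (0.876 ± 0.684) and Agtr1a (0.140 ± 0.0978). Adra2c moved from the fifth place to the second, Adra2a from the second to the sixth, and Agtr2 stood above Agtr1a in the CEA, where Agtr1a was near the limit of detection. Neighbours whose SD ranges overlapped were, in the PVN, Adra2a with Adra1b, Adra1b with Ace, Ace with Adra2c, Adra1a with Adrb1, and Adrb1 with Agtr1a. In the CEA they were Adra1b with Ace, Ace with Adrb1, Adra2a with Adra1a, and Agtr2 with Agtr1a.

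Relations among the genes were looked for across the 12 libraries of each region. In the CEA, Adra1b, Agtr2, Adra2c and Ace were those with a pair past the threshold on either coefficient. Adra1b and Agtr2 rose and fell together (r = 0.963, permutation p = 3e-05, adjusted p = 0.00216 over 72 gene pairs and rho = 0.881, permutation p = 0.0003, adjusted p = 0.0216). Without the 2 libraries farthest from the median r was 0.916, and with treatment means removed it was 0.976. Both were low in CEA NC 1, HT 1, EA 1, EA 3 and SEA 2. Adra2c and Ace were related to each other (r = 0.746, permutation p = 0.00561, adjusted p = 0.0449 and rho = 0.643, permutation p = 0.0271, adjusted p = 0.122 and r = 0.618 without the 2 farthest) by Pearson's coefficient only, and in the PVN that pair gave r = -0.575 (permutation p = 0.0538, adjusted p = 0.133 and rho = -0.231, permutation p = 0.470, adjusted p = 0.651 and r = -0.542 without the 2 farthest). In the CEA both ran against Adra1b, again by Pearson's coefficient only, with r = -0.756 for Adra2c (permutation p = 0.00365, adjusted p = 0.0449 and rho = -0.685, permutation p = 0.0173, adjusted p = 0.0920 and r = -0.552 without the 2 farthest) and r = -0.747 for Ace (permutation p = 0.00511, adjusted p = 0.0449 and rho = -0.685, permutation p = 0.0179, adjusted p = 0.0920 and r = -0.526 without the 2 farthest). Adra2c also ran against Agtr2 there by Pearson's coefficient only (r = -0.745, permutation p = 0.00526, adjusted p = 0.0449 and rho = -0.734, permutation p = 0.0082, adjusted p = 0.0920 and r = -0.723 without the 2 farthest). In the PVN, pairs passed by Pearson's coefficient only, with adjusted p by rank of 0.0605 to 0.212. Adra1a rose with Ace (r = 0.941, permutation test adjusted p = 0.00744, r = 0.549 without the 2 farthest) and Adra1b with Adrb1 (0.865, 0.00744 and 0.677). Adra2a ran against Ace (-0.758, 0.0449 and -0.661), Adrb1 against Agtr1a (-0.728, 0.0449 and -0.480) and Agtr2 against Agt (-0.729, 0.0475 and -0.635). Only the CEA pair Adra1b and Agtr2 passed on both coefficients, among 36 pairs in each region.

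Markers listed for the thalamus and for cortex and hippocampus moved with these patterns. Adra1b followed the thalamus markers Tcf7l2, Lef1, Rora, Slc17a6, Gbx2 and Ntng1 in the CEA (r = 0.971, permutation p = 1e-05, the smallest possible, adjusted p = 0.00108 and rho = 0.909, permutation p = 0.00014, adjusted p = 0.0103 and r = 0.931 without the 2 farthest libraries, 0.985 with treatment means removed). It did so in the PVN as well (r = 0.961, permutation p = 3e-05, adjusted p = 0.00216 and rho = 0.909, permutation p = 0.00019, adjusted p = 0.0103 and r = 0.895 without the 2 farthest, 0.953 with treatment means removed). For Agtr2 in the CEA the values were r = 0.936 (permutation p = 6e-05, adjusted p = 0.00216) and rho = 0.846 (permutation p = 0.00084, adjusted p = 0.0246), with r = 0.845 without the 2 farthest. For Agtr2 in the PVN they were r = 0.791 (permutation p = 0.00226, adjusted p = 0.0305) and rho = 0.797 (permutation p = 0.0033, adjusted p = 0.0383), with r = 0.840 without the 2 farthest. Markers of excitatory neurons of cortex and hippocampus (6 of 6), 12.8 to 443 CPM in the CEA and 42.5 to 85.5 CPM in the PVN, gave r = 0.907 with Adra1b in the CEA (permutation p = 5e-05, adjusted p = 0.00216 and rho = 0.902, permutation p = 0.00015, adjusted p = 0.0103 and r = 0.938 without the 2 farthest). The tissues sampled and these genes' levels cannot be told apart from these libraries, and the part of the markers in the values was not tested.

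**Figure D3:**
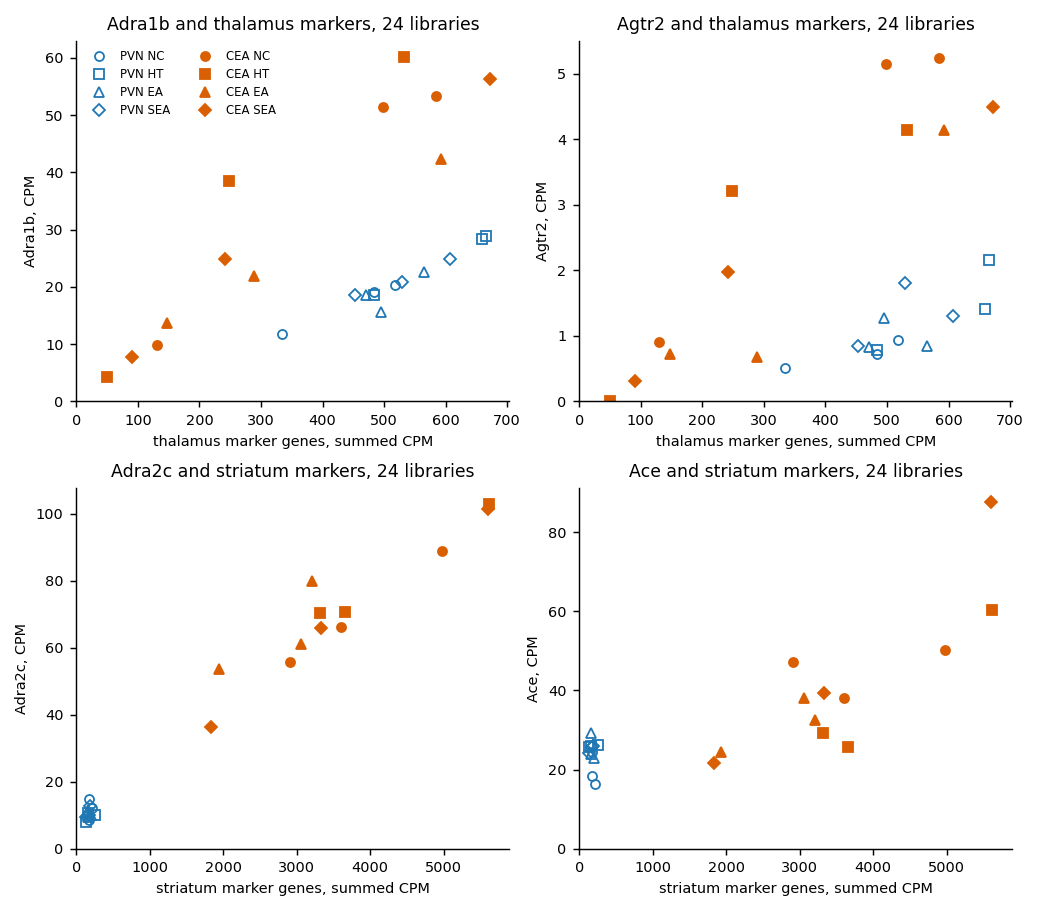
Level of Adra1b and Agtr2 against the summed thalamus markers (top) and of Adra2c and Ace against the summed striatum markers (bottom), all in CPM; each point is a library, PVN open and blue, CEA filled and orange, with the symbol giving the treatment. CEA libraries of each treatment lie at both ends of the thalamus axis, from 49.5 to 672 CPM.

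Oligodendrocyte, vessel and microglia markers moved with the region too, without a test of their part in the values. The 5 oligodendrocyte markers summed to 9208 to 15561 CPM in the PVN and 24647 to 41132 CPM in the CEA. The 7 mural markers summed to 140 to 197 and 191 to 320 CPM, and the 5 microglia markers to 140 to 208 and 199 to 306 CPM. Meningeal markers overlapped (23.4 to 48.0 and 29.8 to 49.1 CPM). When the libraries CEA NC 2, EA 1 and SEA 2, with choroid plexus markers above 100 CPM, were left out, 7 of the 8 genes other than Agtr1a passed. So did 9171 genes in all. The log2 fold changes of the 7 were 2.72 for Adra2c, 1.55 for Adrb1, 1.31 for Agtr2, 0.56 for Ace, -0.54 for Adra1a, -1.09 for Agt and -1.53 for Adra2a.

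The pathways around these genes were read from lists of 21 other genes, of which 18 were abundant enough to be tested. Over all treatments 7 were higher in the CEA and 6 lower (edgeR, adjusted p under 0.05), beside the 27.2% and 29.7% of all genes. Both adrenoceptor genes tested from them were higher in the CEA: Adra1d, the remaining α1 form (log2 fold change 2.03, SE 0.26, adjusted p = 4.3e-07) and Adra2b (0.97, SE 0.32, adjusted p = 0.012). The median over all genes was -0.01. Adra1d, like Adra1b and Agtr2, was lowest in CEA HT 1, at 1.83 CPM, and ran from there to 20.5 CPM in the CEA. Adrb3 had at most 3 counts in any library and was not tested.

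Of 4 genes that switch receptors off, 3 were lower in the CEA, beside 29.7% of all genes. Arrb2, which uncouples receptors from their G proteins, had a log2 fold change of -0.71 (SE 0.07, edgeR adjusted p = 2.8e-09), and the receptor kinases followed with Grk3 (-0.66, SE 0.16, adjusted p = 0.00098) and Grk2 (-0.24, SE 0.04, adjusted p = 6.6e-05). Arrb1 had a value of -0.04 (SE 0.15, adjusted p = 0.83). The median of the 4 genes was -0.45. Of the 12 other angiotensin pathway genes tested, 5 were higher and 3 lower in the CEA, with a median of 0.05, and these 8 of 12 stand beside 56.9% of all genes called in either direction. Those higher in the CEA included the peptidases Mme (1.30, SE 0.20, edgeR adjusted p = 6.4e-06) and Enpep (0.84, SE 0.19, adjusted p = 0.00052), which trims angiotensin II, together with the mineralocorticoid receptor Nr3c2 (0.81, SE 0.14, adjusted p = 3.4e-05). Prcp (-0.30, SE 0.09, adjusted p = 0.0058), Nln (-0.26, SE 0.05, adjusted p = 9.0e-05) and Atp6ap2 (-0.14, SE 0.05, adjusted p = 0.024) were lower by edgeR.

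**Figure D4:**
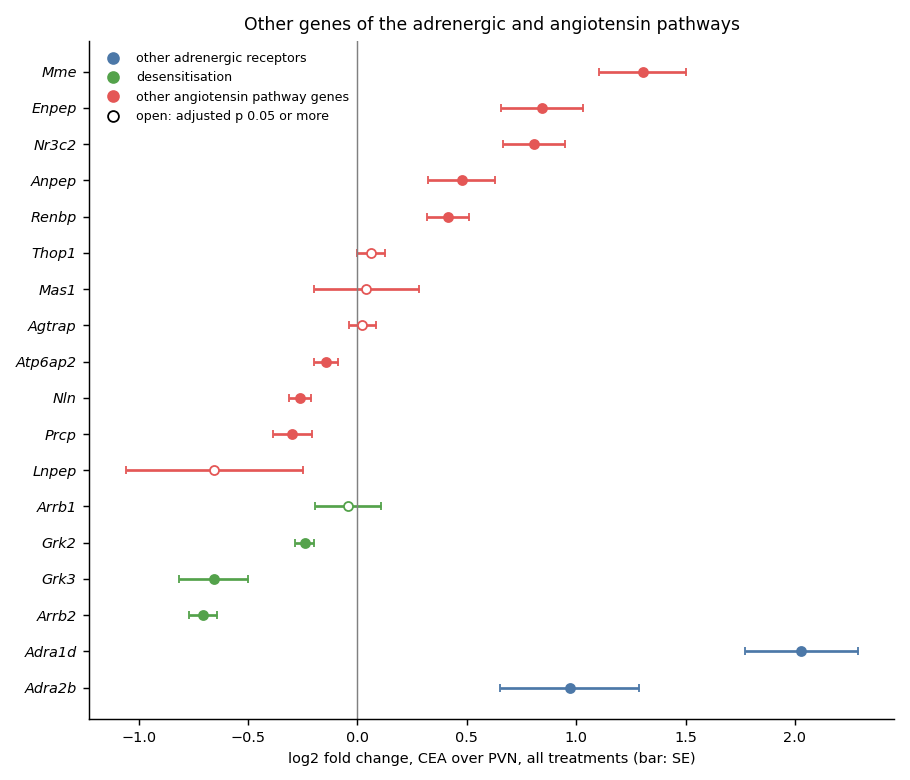
Log2 fold change over all treatments (x axis, CEA over PVN, bars the SE) of the 18 tested genes of the wider pathways, coloured by list; open points had an adjusted p of 0.05 or more. The adrenoceptor genes Adra1d and Adra2b lie at 2.03 and 0.97, and the 4 desensitisation genes between -0.71 and -0.04.

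In contrast to the regions, none of the 9 genes passed the threshold between treatments. In the 4 PVN comparisons all 9 genes were tested and 0 had an edgeR adjusted p under 0.05, beside 0.0120% of all genes in HT against NC, 0.0961% in EA against HT, and 0% in both SEA against HT and EA against SEA. At an unadjusted p under 0.05 the counts were 1, 0, 0 and 1 of 9, beside 11.0%, 5.67%, 4.38% and 5.21% of all genes. DESeq2 gave 0 adjusted calls among these genes in each, beside 30, 100, 21 and 23 genes in all. In the CEA 8 genes were tested, Agtr1a being too low, and 0 passed with or without adjustment in HT against NC, EA against HT, SEA against HT and EA against SEA. The edgeR background there was 0% adjusted in each and 3.75%, 3.19%, 3.07% and 1.99% unadjusted. DESeq2 again gave 0 adjusted calls among these genes, beside 26, 7, 3 and 5 genes in all. EA against HT and SEA against HT share the HT libraries.

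The gene nearest to a change after hepatectomy in the PVN was Ace, whose HT libraries (25.6 to 26.1 CPM) were all above the NC libraries (16.3 to 24.4 CPM). The difference was 0.39 on the log2 scale (SE 0.16, unadjusted p = 0.043 and adjusted p = 0.42 by edgeR). The other 8 genes ran from -0.32 for Adra2c to 0.99 for Agtr2 (SE 0.44), and the median of the 9 was 0.39, against -0.01 over all genes. Agtr2 in PVN NC was 0.506, 0.933 and 0.719 CPM and in PVN HT 2.16, 1.41 and 0.776 CPM, overlapping by the last of these. The thalamus markers, which Agtr2 followed in the PVN, summed to 335, 517 and 484 CPM in NC and 666, 659 and 483 CPM in HT. PVN NC 1 was the lowest PVN library for Adra1a, Adra1b, Adrb1, Agtr2 and Ace, and the highest for Adra2a and Agtr1a. PVN NC 2 decided the calls: without it Adra1a (1.45, edgeR adjusted p = 0.0048) and Ace (0.57, adjusted p = 0.010) passed in HT against NC, but so did 3418 genes in all. Without PVN NC 1 the value of Ace was 0.27. Marker sums moved with Ace in the PVN. The PVN markers summed to 1060, 1003 and 1333 CPM in NC and 909, 954 and 417 CPM in HT, without overlap. Over the 12 PVN libraries Ace ran against them by rank (rho = -0.895, permutation p = 0.00027, adjusted p = 0.0117) but not past the threshold by Pearson's coefficient (r = -0.446, permutation p = 0.160, adjusted p = 0.371 and r = -0.395 without the 2 farthest libraries). The central amygdala markers overlapped between the groups, summing to 766, 500.2 and 734 CPM in NC and 535, 560 and 452 CPM in HT. Ace fell as they rose (r = -0.883, permutation p = 0.00102, adjusted p = 0.0220 and rho = -0.811, permutation p = 0.0021, adjusted p = 0.0378), but r was -0.452 without the 2 farthest libraries, so Pearson's r rests on those, and it was -0.869 with treatment means removed. The part of these markers in the difference was not tested.

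Current against needles alone gave a single gene below an unadjusted 0.05. Adrb1 in the PVN was 2.67, 3.85 and 2.72 CPM in EA and 4.25, 4.98 and 4.36 CPM in SEA, with every EA library below every SEA library (log2 fold change -0.55, SE 0.21, unadjusted p = 0.026, adjusted p = 0.92 by edgeR). The other genes ran from -0.41 to 0.41 in that comparison. In PVN EA against HT the 9 genes ran from -0.55 (Agtr2) to 0.17 (Agtr1a), with Adra1b at -0.42 (SE 0.19, unadjusted p = 0.054 by edgeR), and in PVN SEA against HT from -0.24 (Adra1b) to 0.28 (Adra1a). In the CEA the 8 tested genes ran from -0.60 to 0.44 in HT against NC, in EA against HT from -0.43 to 0.37, in SEA against HT from -0.37 to 0.33 and in EA against SEA from -0.63 to 0.25. The SE of Agtr2 in the CEA HT comparison was 1.07 and that of Adra1b 0.87, so changes of that size were not detectable there.

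**Figure D5:**
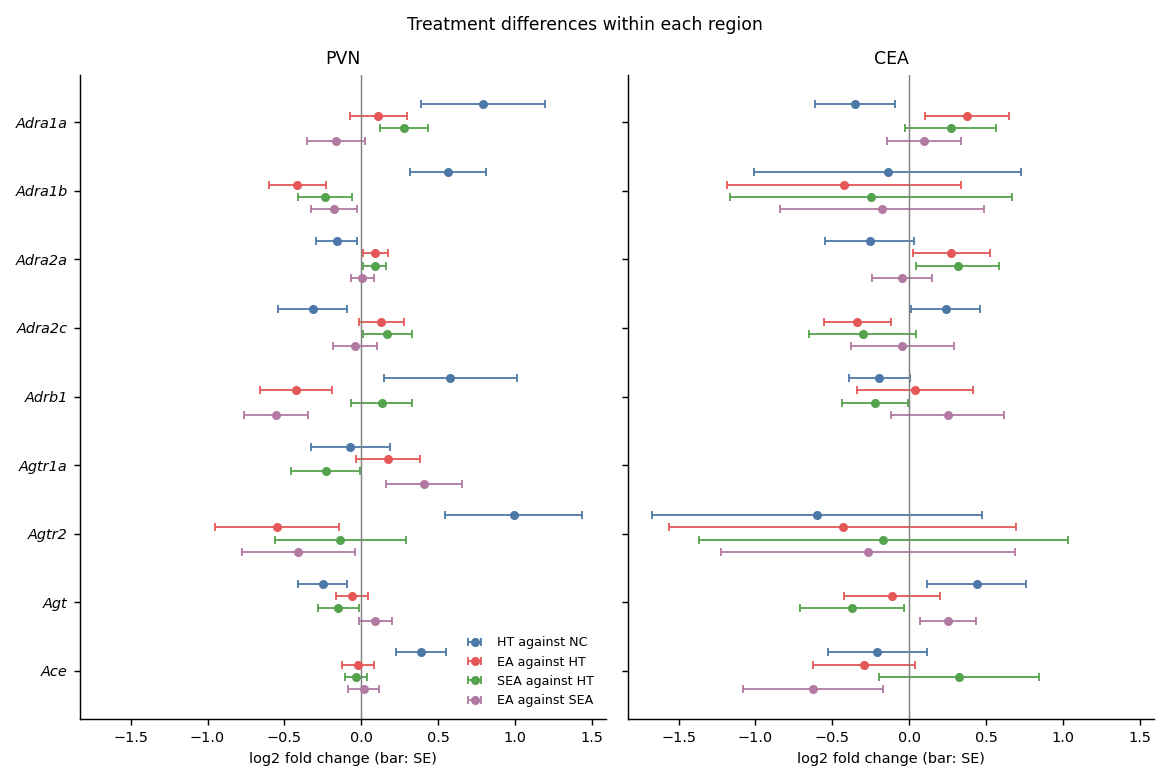
Log2 fold change of each gene between treatments within the PVN (left) and the CEA (right), with the SE as bars; Agtr1a was not tested in the CEA. PVN values lie between -0.55 and 0.99, and the bars of Adra1b and Agtr2 are wider in the CEA than in the PVN in each comparison.

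Whether the regions answered differently was tested as an interaction. Agtr1a was again left out. For HT against NC 0 of the 8 genes passed, beside 0% of all genes, and 1 had an unadjusted p under 0.05, beside 12.1% of all genes. That gene was Adra1a, which was 0.79 (SE 0.40) in the PVN and -0.35 (SE 0.26) in the CEA, a difference of -1.17 (SE 0.51, unadjusted p = 0.041, adjusted p = 0.41 by edgeR). Without PVN NC 2 it was -1.83 (edgeR adjusted p = 0.021), when 693 genes passed in all, and without PVN NC 1 it was -0.89. Over the PVN libraries Adra1a ran against the central amygdala markers (r = -0.866, permutation test adjusted p = 0.0305, r = -0.327 without the 2 farthest). It rose with the mural cell markers (r = 0.793, adjusted p = 0.0406, r = 0.255 without the 2 farthest). Neither passed by rank (adjusted p = 0.164 and 0.344), and the part of these markers was not tested. For EA against HT 0 of 8 passed in either way, beside 0% adjusted and 4.52% unadjusted, with values from -0.48 for Adra2c to 0.46 for Adrb1. DESeq2 gave 0 adjusted calls among these genes in both interactions, beside 1 gene in all with HT and 50 with EA. Of the 18 wider pathway genes tested, 0 passed in any treatment comparison or interaction. At an unadjusted p under 0.05 the counts were 3, 2, 0 and 2 of 18 in PVN HT against NC, EA against HT, SEA against HT and EA against SEA, 0, 0, 0 and 1 in the same CEA comparisons, and 4 and 1 in the interactions with HT and with EA, beside the shares of all genes given above. Over the 10 tests they were Arrb1 in 5, Lnpep in 3, Adra2b and Nr3c2 in 2 each, and Grk3 in 1. Adra2b, an α2 receptor, had an edgeR log2 fold change of 1.29 in PVN HT against NC (SE 0.48, adjusted p = 0.42) and -0.59 for PVN EA against HT (SE 0.22, adjusted p = 0.79). For Arrb1, the arrestin whose regional difference missed the threshold, the edgeR log2 fold change was 0.89 in PVN HT against NC (SE 0.36, adjusted p = 0.42) and -0.20 for PVN EA against HT (SE 0.07, adjusted p = 0.71). These comparisons share the PVN HT libraries. Arrb1 was 27.1, 74.9 and 30.1 CPM in PVN NC and 67.8 to 88.3 CPM in the operated PVN groups, so PVN NC 2 sat with the operated rats.

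After the mean of each region was removed, each gene was set beside 16215 others over the 24 libraries, and the 3 with the highest Pearson r of log2 CPM were taken as a description, with no test. All points share the same libraries and depths. Adra1b was most like Ntng1 (0.98), which stands in the thalamus list, Cck (0.98), a neuropeptide of cortical and thalamic neurons, and Rgs16 (0.98). Agtr2 was most like an uncharacterised gene (0.95), Vwc2 (0.95) and Adra1b itself (0.94). Ace was most like Gpr139 (0.91), Pde1b (0.91), a phosphodiesterase abundant in striatal neurons, and Thrb (0.90), and Adra2c like Syt12 (0.90), Tmem158 (0.88) and Baiap2 (0.88). Adra1a was nearest to Ogfod1 (0.96), Rabgap1l (0.95) and Tulp4 (0.95), Adrb1 to Rnf157 (0.85), Stard4 (0.83) and Epha4 (0.82), and Agt to Ybx3 (0.89), Enho (0.88) and Hm13 (0.87). Adra2a was nearest to Necap1 (0.86), Olfm2 (0.82) and Fxyd6 (0.82). The likeness to the nearest gene was lowest for Agtr1a, with Pkib (0.76), Hook1 (0.72) and Phykpl (0.71).

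Along the genome the 9 genes lay on 7 chromosomes, in the coordinates of the count table. Adra2a (chr1:274766283-274769081, plus strand) and Adrb1 (chr1:277537585-277538985, plus strand) both lie on chromosome 1 and had opposite regional differences. Ace (chr10:94170766-94187822, plus strand) and Adra1b (chr10:29392762-29450644, minus strand) share chromosome 10. The others are Adra1a (chr15:43298794-43392451, plus), Adra2c (chr14:80730307-80732010, minus), Agt (chr19:57321640-57333433, minus), Agtr1a (chr17:35907108-35958077, minus) and Agtr2 (chrX:119390013-119393842, plus). All are protein coding, and counts were given per gene, not per transcript. The length used for CPM per kilobase is the one listed for the gene. For Adra1a it is 2039 bases, much shorter than the span above.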

How the data were processed

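Strand-specific mRNA libraries of the PVN and CEA were grouped and numbered by their titles. The deposited values are raw counts of reads for each gene, which the authors made by mapping filtered reads with HISAT2 and counting with featureCounts (versions not given in the sources used here). The methods name mRatBN7.2, but the largest gene end on chromosome 1, 282724300, lies beyond that assembly, so coordinates are given as in the table; the GRCr8 promoter positions belong to another build and are not compared with them. How reads with several matches were counted was not given, so near-identical copies are uncertain. A stray header line, in which CEA EA replicates 2 and 3 are exchanged, was left out. It leaves group values unchanged, but statements on CEA EA 2 or CEA EA 3 alone depend on the header followed. The study left a CEA EA library out of its co-expression network without naming it, and none was left out here. No pair of libraries was identical.

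Depth was 13152772 to 18607032 counts; 3 counts, the limit that a count of 0 allows, were 0.158 to 0.237 CPM after TMM scaling. Intervals cover counting error only, since reads carried no molecular identifiers. Each comparison was fitted in R 4.3.3 on its own groups with the two-sided quasi-likelihood test of edgeR 4.0.16 (filterByExpr, TMM), with Benjamini-Hochberg adjustment over all genes and a threshold of 0.05, and checked on simulated counts. Region over all treatments had treatment as a term. Correlations used log2 CPM (prior count 2) of genes and log2 of summed marker CPM, with two-sided tests over 100000 permutations (SciPy 1.17.1), and were repeated without the 2 libraries farthest from the median of the gene named first; p-values were adjusted over 72 gene pairs and 216 pairs of gene and marker sum, separately for Pearson and Spearman. Alternatives were other size factors, no filter, all groups in the fit, a replicate block, DESeq2 1.42.0 and leaving out each library.

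All 9 genes are described by level and 8 by tests between regions; Agtr1a was left out of the region and interaction results after its CEA counts were seen; in treatment comparisons those with an unadjusted p under 0.05 are named, and other genes by list or by likeness; further examples were chosen after their values were seen. The genes and lists were chosen with earlier results of these data known. Some genes of the wider pathways are not reported here.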

Additional observations from a re-analysis of the deposited data

How the results depend on the processing

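The count of genes past the threshold stayed within 1.5 times the main count in 194 alternatives over the 15 comparisons and moved further in 2. Both of those left out PVN NC replicate 2, which raised the count from 0 to 2 in PVN HT against NC and from 0 to 1 in the interaction of region with that contrast; over the left-out libraries the counts ran from 0 to 2 and from 0 to 1, and the cause was not tested. No alternative run reversed a direction. For 11 fold changes, those of 8 genes between regions over all treatments and the 3 named in a treatment comparison or interaction, 264 alternatives kept their side of the threshold, 11 lost it (all Agtr2 between regions) and 4 gained it (Adra1b between regions without CEA HT 1 or CEA SEA 2, and, without PVN NC 2, Ace in PVN HT against NC and Adra1a in the interaction); calls within single treatments that a left-out library changed stand in the report. For Agtr2 those were 10 left-out libraries and the replicate block, under which 6 in place of 7 genes passed over all treatments; in HT and SEA the block removed the call of Adra1a (adjusted p = 0.069 and 0.054, edgeR). With a correlation over 0.1 required of all 3 pairs, same-numbered libraries deviated together only for the regions in NC (r 0.13 to 0.29) and for CEA HT against NC (0.18 to 0.29), and there the block changed no call; elsewhere they shared only a number. With all groups in the fit, Agt passed in HT (adjusted p = 0.0069) and Ace in SEA (0.048), and Agtr2 did not in NC (0.068); DESeq2 called Agt in HT (0.024), and with no filter Adra1a did not pass in HT (0.057). Leaving out the libraries with choroid plexus markers was chosen after seeing the data. Depth limited Agtr1a in the CEA, with 2 to 9 counts a library.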
